A study of Mus musculus with 4 samples.

Results

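The genes described are 10 receptor-type protein tyrosine phosphatases of the mouse, Ptprm, Ptprk, Ptprt, Ptpru, Ptprd, Ptprf, Ptprs, Ptprg, Ptprj and Ptpre, out of 21896 protein-coding genes. A merged ATAC peak was counted for a gene if the peak's centre lay inside the gene body, or if that gene was the nearest protein-coding gene within 100 kb. By this rule 81 of the 74695 merged peaks belonged to these genes, which was 0.108%. The 10 genes were chosen by measured values, the number of peaks and the entries of the differential peak lists at Ptprm, so the counts below describe these files and no test was made on them.

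The libraries MDM1, MDM2, YSM1 and YSM2 came from sorted mouse brain parenchymal macrophages with 2 libraries in each of 2 groups. The study's title concerns monocyte-derived macrophages that engraft the brain, from which MDM takes its reading here, while YSM is left unexplained in the labels. Every library, MDM and YSM alike, carried the genotype Ms4a3-Ai9 and the treatment DR-3x, a term the labels leave unexplained. Granulocyte and monocyte progenitors express Ms4a3, and the Ai9 allele makes a red fluorescent protein once Cre recombinase has acted on it. The labels give no age, and they do not say from how many animals each group was made. ATAC-seq, here in its Omni-ATAC form, inserts sequencing adapters into open chromatin with the Tn5 transposase, so a peak marks an accessible stretch of DNA. The files held the merged peaks of the 4 libraries, an MDM list of 108 differential peaks (0.145% of the merged peaks) and a YSM list of 1104 (1.48%), with no peak in both. Going by the list names alone, entry in a list was read as greater accessibility in the group it is named for. The files held no value per library, so no replicate error can be given for any count, and the depth of the libraries is unknown here. All 11 macrophage and microglia marker genes had merged peaks, 2 to 16 each, with 0 in either list. Among genes of other cells, 3 of 4 neuronal, 4 of 4 astrocyte, 2 of 4 oligodendrocyte, 4 of 4 endothelial and 2 of 4 lymphocyte and granulocyte markers had at least 1 merged peak. Over all protein-coding genes, 15386 of 21896 had a merged peak, and nothing about cell type is read from the marker counts. Of those 15386, 0.539% held an MDM-listed and 4.26% a YSM-listed peak. The astrocyte gene Slc1a3 held 7 YSM-listed peaks and the oligodendrocyte genes Mog and Mbp held 1 each, and the part of other cells in the lists was not tested.

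Receptor-type tyrosine phosphatases span the cell membrane, with an extracellular part that meets neighbouring cells or matrix and an intracellular part that, in most members, removes phosphate from tyrosines. The subtypes differ in the outer part. The R2B genes Ptprm, Ptprk, Ptprt and Ptpru encode adhesion molecules with a MAM domain, and Ptprm, Ptprk and Ptprt bind their own kind on the adjoining cell and associate with cadherins and catenins. The R2A genes Ptprd, Ptprf and Ptprs encode the LAR family, which organises synapses in neurons and in which Ptprs is a receptor for chondroitin and heparan sulfate proteoglycans. Ptprg, of the R5 subtype, has a carbonic anhydrase-like domain that binds contactins. Ptprj, of the R3 subtype and also called CD148 or DEP-1, dephosphorylates receptor kinases and acts on Src family kinases in macrophages. Ptpre, of the R4 subtype, has a short glycosylated outer part and also exists as a cytosolic form made from a start inside the gene.

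The DNA around the annotated start of a gene shows where the accessible stretch lay. RefSeq start windows of 300 bases on GRCm38.p6, the assembly behind mm10, were read from 250 bases before to 50 bases after each start, in the direction of the gene. There were 14 such windows for 9 of the genes, and none for Ptprd. The windows of the R2B genes are printed because the only differential peaks of the family fell at 1 of these 4 genes. They lie at chr17:67354410-67354709 for Ptprm, chr10:28074570-28074869 for Ptprk, chr2:162661098-162661397 for Ptprt and chr4:131838229-131838528 for Ptpru, on the minus strand except for Ptprk on the plus strand. Letters are 5′ to 3′ and capitals mark the bases under a merged peak.
Ptprm: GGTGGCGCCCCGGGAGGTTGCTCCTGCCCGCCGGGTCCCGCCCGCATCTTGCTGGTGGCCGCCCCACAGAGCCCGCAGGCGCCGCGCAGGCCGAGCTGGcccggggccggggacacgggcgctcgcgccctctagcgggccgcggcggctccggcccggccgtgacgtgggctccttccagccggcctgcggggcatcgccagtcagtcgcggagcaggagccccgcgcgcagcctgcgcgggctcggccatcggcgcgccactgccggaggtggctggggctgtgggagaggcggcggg
Ptprk: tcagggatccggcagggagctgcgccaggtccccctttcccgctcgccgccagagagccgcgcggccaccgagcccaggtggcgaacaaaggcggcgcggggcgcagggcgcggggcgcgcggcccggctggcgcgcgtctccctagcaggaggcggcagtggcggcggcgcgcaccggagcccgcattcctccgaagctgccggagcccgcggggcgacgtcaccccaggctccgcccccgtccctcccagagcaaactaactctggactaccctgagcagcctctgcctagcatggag
Ptprt: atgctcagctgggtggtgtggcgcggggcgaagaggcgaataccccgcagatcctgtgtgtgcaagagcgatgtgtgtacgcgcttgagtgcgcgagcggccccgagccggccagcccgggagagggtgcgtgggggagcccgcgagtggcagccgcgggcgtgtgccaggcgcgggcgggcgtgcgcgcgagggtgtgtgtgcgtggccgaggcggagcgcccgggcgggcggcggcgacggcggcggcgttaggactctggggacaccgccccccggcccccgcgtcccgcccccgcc
Ptpru: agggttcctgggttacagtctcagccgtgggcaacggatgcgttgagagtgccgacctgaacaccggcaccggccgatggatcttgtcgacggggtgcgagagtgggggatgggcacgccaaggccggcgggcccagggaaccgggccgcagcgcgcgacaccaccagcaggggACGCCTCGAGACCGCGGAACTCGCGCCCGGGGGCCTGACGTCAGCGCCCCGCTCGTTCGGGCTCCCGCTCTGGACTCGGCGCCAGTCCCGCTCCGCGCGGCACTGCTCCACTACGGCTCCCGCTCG

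At Ptprm the peak covered the far upstream 99 bases of the window and ended before the annotated start, which lies 250 bases into the printed sequence. At Ptpru it covered 126 bases that run over the start. The windows of Ptprk and Ptprt held no merged peak, although all 4 are rich in CpG, with 43 CpG in Ptprm, 38 in Ptprk, 46 in Ptprt and 40 in Ptpru. Their G and C content was 80.7%, 75%, 77.3% and 72.3% in that order of genes. The median over 21262 start windows of protein-coding genes was 56.3% with 13 CpG. Start windows with a merged peak had a median of 22 CpG, against 4 in windows without one, so the Ptprk and Ptprt windows held more CpG than is usual for windows without a peak.

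The windows of Ptprs at chr17:56476431-56476730 and Ptprj at chr2:90580546-90580845, both on the minus strand, are printed as starts with a peak outside the R2B subtype. Capitals again mark bases under a merged peak.
Ptprs: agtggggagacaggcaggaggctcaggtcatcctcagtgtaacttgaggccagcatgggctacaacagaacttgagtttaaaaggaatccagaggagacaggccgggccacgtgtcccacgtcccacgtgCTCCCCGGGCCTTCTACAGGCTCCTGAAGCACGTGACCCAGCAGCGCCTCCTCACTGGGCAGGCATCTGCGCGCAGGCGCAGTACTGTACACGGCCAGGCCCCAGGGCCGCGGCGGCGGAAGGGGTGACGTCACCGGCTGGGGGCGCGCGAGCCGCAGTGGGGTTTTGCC
Ptprj: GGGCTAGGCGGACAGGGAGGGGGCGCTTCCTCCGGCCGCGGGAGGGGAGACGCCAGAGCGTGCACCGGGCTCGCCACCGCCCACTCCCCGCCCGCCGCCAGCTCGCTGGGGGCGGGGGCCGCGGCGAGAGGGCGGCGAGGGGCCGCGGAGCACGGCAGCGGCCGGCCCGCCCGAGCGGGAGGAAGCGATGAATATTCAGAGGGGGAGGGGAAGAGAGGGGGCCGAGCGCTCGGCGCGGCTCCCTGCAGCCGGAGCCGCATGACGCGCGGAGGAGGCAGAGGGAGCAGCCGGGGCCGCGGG

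In Ptprs 170 of 300 bases lay under a peak, and in Ptprj the whole window did. The whole first window of Ptpre, at chr7:135537574-135537873 on the plus strand, was covered too, by a peak of 6 subpeaks. A later start of Ptprs, 14.3 kb into the gene, had 203 of its 300 bases under another peak. By contrast, 0 bases were covered at the later starts of Ptpre, 55.7 and 68.0 kb into the gene, of Ptprj, 101 kb in, and of Ptprg, 636 kb in. The windows at the first starts of Ptprf and Ptprg were also without a peak. In all, 5 of the 9 genes with a window had a peak over part of the first window, which at Ptprm did not reach the start itself, against 9223 of 17491 protein-coding genes (52.7%) with a peak over at least 1 window, a share of like size. The Ptprm peak was the only one of the 5 in a differential list, the YSM list, where 79 of 10516 covered start windows stood (0.751%). The MDM list held 2 of those 10516 (0.019%) and 0 at these genes.

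**Figure D1:**
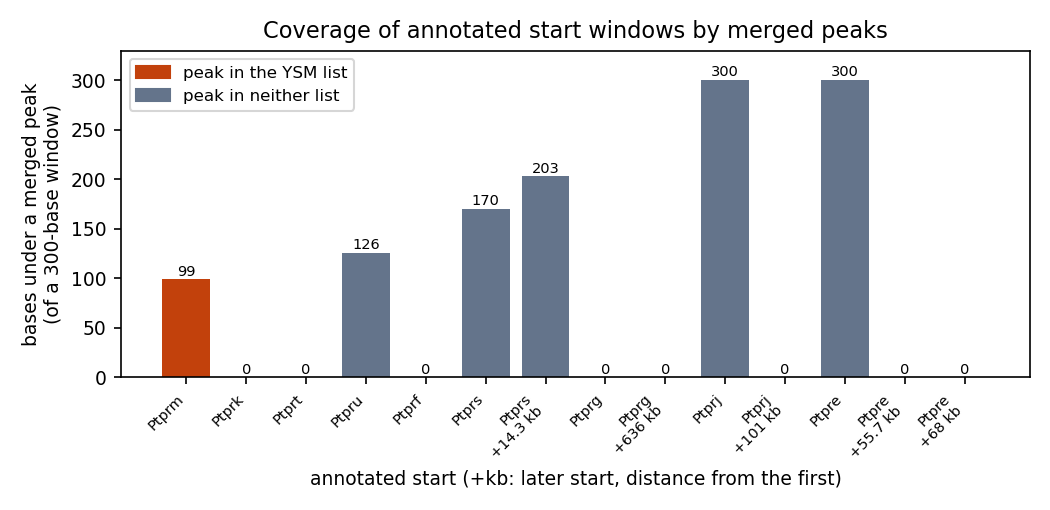
Bases of each 300-base start window that lay under a merged peak, for the 14 annotated starts of 9 genes, with later starts marked by their distance from the first in kb. Bars reach 99 bases at Ptprm, whose peak is YSM-listed, and 126, 170, 203, 300 and 300 bases at Ptpru, both Ptprs starts, Ptprj and Ptpre, whose peaks are in neither list.

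Short motifs were searched on both strands in the same windows, as letters only. The GC box GGGCGG, the core bound by SP and KLF factors, is in 46.2% of all start windows. It occurred 2 times in Ptprm and 5 times in Ptprj, all under the peak, and 1 time in Ptpre under the peak. It also occurred 5 times in Ptprt, 3 times in Ptprf and 1 time in Ptprk, where no base was covered, and 3 times in the later Ptprs window, 1 of them under the peak, so starts with and without a peak held it. The cAMP response element TGACGTCA, in 2.23% of windows, occurred under the peak in both Ptpru and Ptprs. The PU.1 core GAGGAAG, in 13.6% of windows, occurred 2 times under the Ptprj peak, and 1 time in each of 2 windows without a peak, the later start of Ptprj and the Ptpre start 55.7 kb in. The E-box CACGTG, in 7.84%, occurred 3 times in Ptprs with 1 under the peak. The ETS core CCGGAA (18.7%) and the TATA box TATAAA (12.6%) were in none of the first-start windows, and each occurred 1 time at a later start without a peak, CCGGAA at Ptprg and TATAAA at the Ptpre start 68.0 kb in. CCGGAA shares its last letters GGAA with the PU.1 core, but no window of these genes held both. A match is a description of the letters and no sign of binding.

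The 10 genes are given here by their raw number of merged peaks, without regard to gene length. Ptpre with 22, Ptprj with 19 and Ptprm with 18 held most of the 81. Ptprs had 8, Ptprk 7, Ptpru 4 and Ptprf 3. Ptprt, Ptprd and Ptprg had 0. None of the 81 was in the MDM list, where 0.145% of all merged peaks and 0.539% of the 15386 genes with a merged peak stood. The YSM list held 10 of the 81, which was 12.3%, beside 1.48% of all merged peaks. These 10 lay at 1 of the 7 genes with peaks, Ptprm, beside 4.26% of all genes with a merged peak. Since Ptprm was chosen for its listed peaks, those shares describe the choice. Without Ptprm, 63 peaks remained and 0 were in either list. By counting error alone, a count of 0 among 81 peaks allows a share of up to 3.7%, and a count of 0 among 63 allows up to 4.76% (3 counts of the total). Both limits lie above the shares over all merged peaks, so nothing is read from these zeros. The limits take the peaks as independent, which peaks of 1 gene need not be. The YSM zero comes from leaving out the gene that was chosen for its listed peaks.

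**Figure D2:**
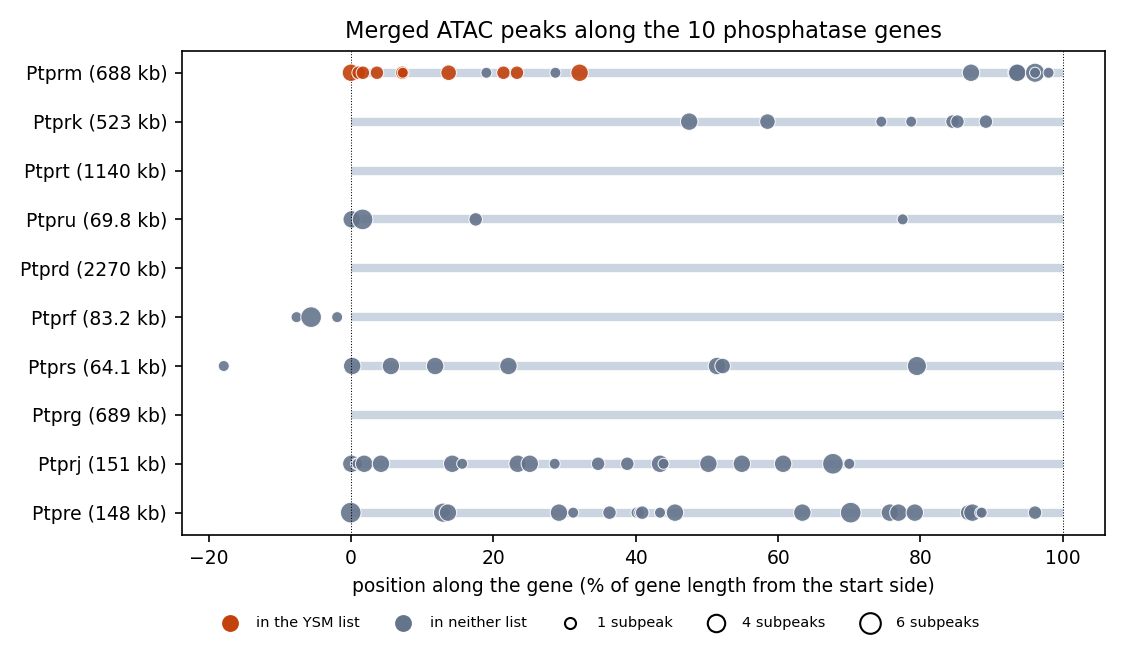
Merged peaks along the 10 genes, each gene drawn to the same width, with position as percent of gene length from the start side and larger points for more subpeaks. The 10 YSM-listed peaks sit within the first 32.1% of Ptprm or just before it, the peaks of Ptprk lie between 47.5% and 89.2%, and Ptprt, Ptprd and Ptprg are empty.

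Among the long genes of the family, peak number did not follow gene length. Ptprm, at chr17:66666848-67354491 on the minus strand, is 688 kb long, and Ptprg, at chr14:11553440-12242041 on the plus strand, is 689 kb long. Ptprm held 18 peaks and Ptprg 0. Ptprt, 1140 kb at chr2:161521988-162661147, and Ptprd, 2270 kb at chr4:75941237-78211742, are longer still and also had 0. Among all 226 protein-coding genes over 500 kb, 36.7% had no merged peak, and their median was 3 with quartiles of 0 and 13, so both an empty gene and a gene with 18 peaks lie within what long genes show. Ptprm, with 2.62 merged peaks per 100 kb, was at or above 83.2% of these genes, whose median was 0.33 per 100 kb. Ptprk, 523 kb at chr10:28074820-28597397 on the plus strand, had 1.34 per 100 kb and was at or above 69.5% of them. In this class 5 of 2013 merged peaks were MDM-listed, or 0.248%, and 97 were YSM-listed, or 4.82%, and 39 of the 226 genes held a YSM-listed peak.

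The densest genes of the family were the shorter ones. Ptpre, 148 kb at chr7:135537824-135686294 on the plus strand, had 14.82 merged peaks per 100 kb. Ptprj, 151 kb at chr2:90429756-90580694 on the minus strand, had 12.59. Both were above most of the 1439 genes of 100 to 200 kb, at or above 89.9% and 85.3% of them, where the median was 4.72 per 100 kb. Ptprs, 64.1 kb at chr17:56412426-56476561 on the minus strand, had 12.47 per 100 kb and was at or above 77.2% of the 2516 genes of 50 to 100 kb. Ptpru, 69.8 kb at chr4:131768457-131838306 on the minus strand, had 5.73. Ptprf, 83.2 kb at chr4:118208213-118291405 on the minus strand, had 3.61, all from peaks outside its body. Both lay below that class's median of 6.34, which counts peaks inside and outside the gene. Counting peaks inside only, Ptpru stood at 5.73, above the class median of 4.15, and Ptprf at 0. The median over the 10 genes was 3.11 per 100 kb, against 7.65 over all protein-coding genes, which are mostly shorter.

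**Figure D3:**
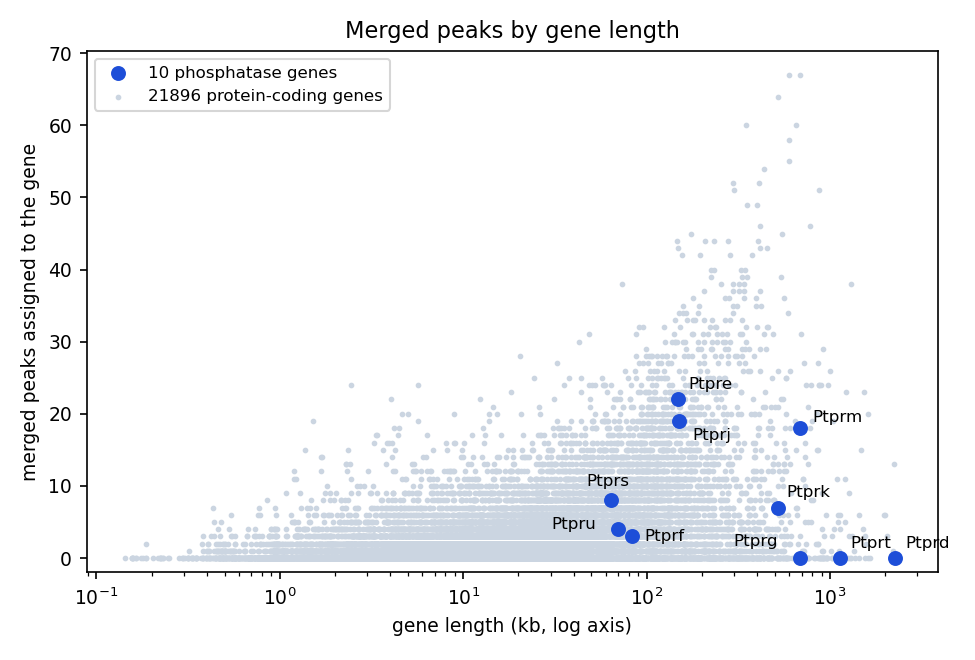
Merged peaks assigned to each gene against gene length in kb on a log axis, for the 10 phosphatase genes and, in grey, all 21896 protein-coding genes. Ptprm at 688 kb holds 18 peaks while Ptprg at 689 kb holds 0, and Ptpre and Ptprj lie at 148 and 151 kb with 22 and 19.

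At Ptprm all the listed peaks lay toward the start, with 2 of the unlisted ones among them. The gene's 18 peaks fell into a start-side group of 12 and a far group of 6, parted by 378 kb without a merged peak. The start-side group ran from chr17:67133658 to 67354840, over 221 kb, and held all 10 YSM-listed peaks and 2 unlisted ones. The far group ran from chr17:66680791 to 66755700, over 74.9 kb at the end of the gene, 599 to 674 kb from the start, and held 0 listed peaks. So 10 of 12 peaks were listed on the start side and 0 of 6 were in the far group, which begins 87.1% of the way along the gene. Of all merged peaks 1.48% were YSM-listed. The split at the widest gap was made after the values were seen, and Ptprm was chosen for its listed peaks, so these counts are description only.

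The YSM-listed peaks of Ptprm are given by the distance of their centres from the annotated start. The start peak, chr17:67354611-67354840, is centred 266 bp before the start and combined 4 subpeaks, the number of library-level peaks merged into an interval. Within the first 50 kb of the gene followed peaks at 7.18, 11.3, 24.9 and 49.4 kb with 2 subpeaks each, and 1 at 49.8 kb with a single subpeak. Farther in were peaks at 94.3 kb with 3 subpeaks, at 147 and 160 kb with 2 each, and at 221 kb with 4. The listed peaks ran through the start side and were mostly closer together in the first 50 kb. The distance between neighbouring centres had a median of 13.5 kb and a range of 0.422 to 60.3 kb. The peaks at 49.4 and 49.8 kb lie 204 bp apart, and when intervals within 1000 bp were counted as 1 site the 10 listed peaks became 9 sites and the gene's 18 became 15.

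The unlisted peaks on the start side, at 131 and 197 kb, had 1 subpeak each. In the far group the peaks at 599, 643 and 644 kb had 4 subpeaks each, those at 661 kb, 12 bp apart, had 5 and 1, and that at 674 kb had 1. Listed peaks were 201 to 266 bp wide and those of the far group 201 to 406 bp. An interval of 3 or fewer subpeaks was missed by the peak calls of some library among the 4, and this held for 8 of the 10 listed peaks and for 2 of the 6 far peaks. Over the whole series it held for 71.6% of YSM-listed peaks and 41.9% of peaks in neither list. The contrast is therefore not read as particular to Ptprm. The files do not say which libraries gave the subpeaks.

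**Figure D4:**
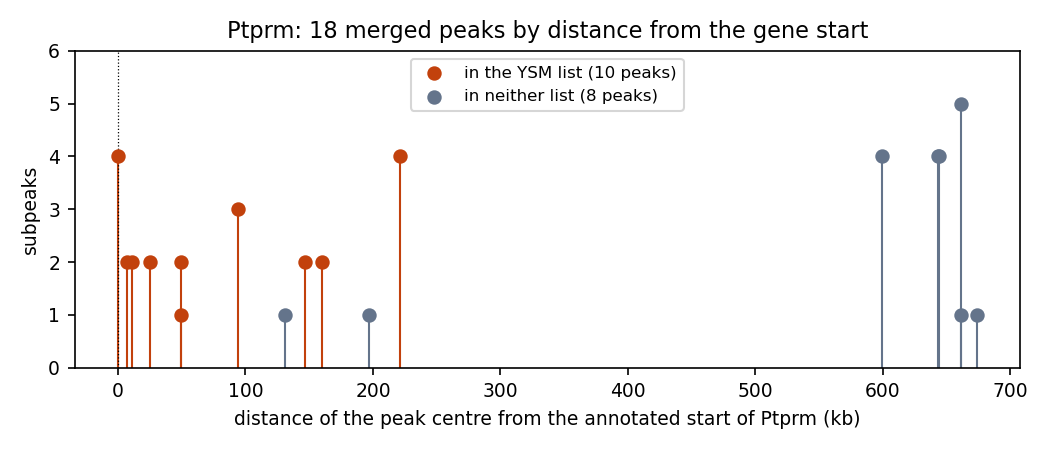
The 18 merged peaks of Ptprm by distance of their centre from the annotated start in kb, with height giving the number of subpeaks. The 10 YSM-listed peaks lie between -0.266 and 221 kb with 1 to 4 subpeaks, and the 6 peaks beyond 599 kb, in neither list, have 1 to 5.

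The 3 genes nearest to Ptprm in merged peaks and YSM-listed share, among 15385 genes with a merged peak, were Nav3, Klf12 and Klhl3. Nav3, 774 kb long, had 18 merged peaks with 6 YSM-listed. Klf12, 420 kb, had 15 with 10 listed, and Klhl3, 123 kb, had 15 with 6 listed. None of them held an MDM-listed peak. By the number of YSM-listed peaks, 3 protein-coding genes including Ptprm had 10 or more.

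Of the other R2B genes, Ptpru had a peak at its start, as Ptprm did, while Ptprk and Ptprt had none there. Ptprk had 7 peaks, all between 47.5% and 89.2% of the way along the gene. Their centres were 248, 306, 389, 411, 441, 445 and 466 kb from the start, with 4, 3, 1, 1, 2, 2 and 2 subpeaks in that order. Ptprk thus had no peak at its start or in the first 248 kb, the stretch that held the start-side group at Ptprm. The unlisted far group of Ptprm, at 87.1% to 98.0% of the gene, lay in the later part of its gene, as the Ptprk peaks mostly did. Ptpru had a start peak of 4 subpeaks centred 0.027 kb after the annotated start. It also had a peak of 6 subpeaks and 589 bp at 1.09 kb, and peaks of 2 and 1 subpeaks at 12.2 and 54.1 kb. Ptprt had none, and the merged peaks nearest to it, 344 kb away on the lower-coordinate side and 261 kb away on the other, were assigned to Chd6 and Srsf6.

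Within the R2A genes Ptprs had peaks along its length, and Ptprf and Ptprd had none inside the gene. The start peak of Ptprs was centred 12 bp after the annotated start with 4 subpeaks. Peaks of 4 or 5 followed at 3.50, 7.47, 14.1, 32.9 and 50.9 kb, with 1 of 3 subpeaks at 33.4 kb. A peak with a single subpeak lay 11461 bp outside the gene, the farthest of the 81 from its gene. Ptprf had 0 peaks inside its body, and its 3 lay 1643, 4687 and 6381 bp before it, with 1, 6 and 1 subpeaks. Ptprd had no peak in its 2270 kb, and the nearest on either side were 339 and 2100 kb away.

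Ptprg, the R5 gene, had none, although peaks assigned to neighbours lay 42.3 kb from it, inside 3830406C13Rik, and 391 kb from it, inside Fhit. Just beyond the 100 kb limit of the rule, a peak with no gene within reach lay 120 kb from Ptprm, on the start side, with 1 subpeak and in neither list. The annotation gave gene intervals and starts only, so exonic and intronic peaks are not told apart.

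Ptprj and Ptpre, the R3 and R4 genes, had peaks from the start through the gene body, with 0 listed. At Ptprj the 19 peaks ran from the start to 106 kb, or 70.0% of the gene, and 11 had 4 or more subpeaks. These 11 were centred at the start (-0.062 kb) and 2.66, 6.22, 21.3, 35.2, 37.7, 65.3, 75.7, 82.7, 91.6 and 102 kb after it. The start peak was 407 bp wide, and its centre also lies inside the predicted gene Gm46752, so it counts for both. The widest Ptprj peak, 505 bp with 6 subpeaks, lay 102 kb in, near the later start at 101 kb but not over its window. At Ptpre the 22 peaks ran from 89 bp before the gene to 143 kb, or 96.1% of it, and 11 had 4 or more subpeaks. These were centred at the start (-0.089 kb) and 19.1, 20.2, 43.4, 67.5, 94.1, 104, 112, 114, 118 and 130 kb after it. Its peaks reached 465 bp and 6 subpeaks at 104 kb, and a peak of 4 subpeaks at 67.5 kb lay just before the later start at 68.0 kb without covering its window.

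**Figure D5:**
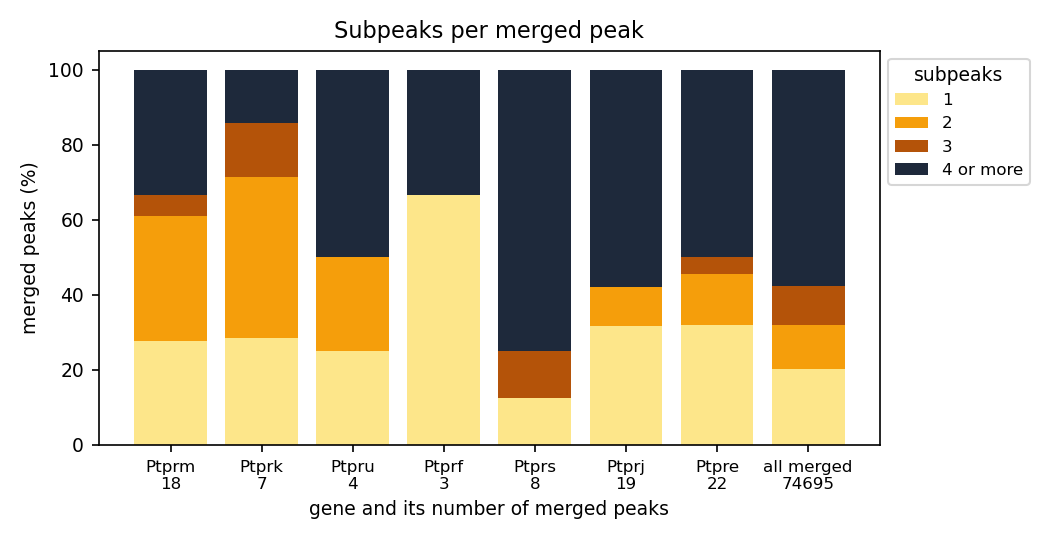
Share of merged peaks with 1, 2, 3 and 4 or more subpeaks, in percent, for the 7 phosphatase genes with peaks and for all 74695 merged peaks, with the number of peaks under each bar. Peaks with 4 or more subpeaks make up 33.3% at Ptprm and 14.3% at Ptprk, and 75% at Ptprs and 57.9% at Ptprj.

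The share of peaks with few subpeaks varied from gene to gene. Of the 81 peaks, 43 had at most 3 subpeaks, or 53.1%, against 42.3% of all merged peaks. Without Ptprm, which was chosen for its listed peaks, the share was 49.2%. The exact Clopper-Pearson 95% interval of the 53.1% was 41.7 to 64.3%, for counting error only. It takes the peaks as independent, which peaks of the same gene need not be, and it leaves out the choice of genes. The interval is therefore not used to compare the family with all merged peaks. The share with 4 or more was 75% at Ptprs, 57.9% at Ptprj, 50.0% at Ptpre and Ptpru, 33.3% at Ptprm and Ptprf and 14.3% at Ptprk. Peaks with exactly 2 subpeaks were 6 of the 10 YSM-listed peaks of Ptprm and 9 of the 71 unlisted peaks of the family. In the whole series, 5.56% of MDM-listed peaks, 46.7% of YSM-listed peaks and 11.1% of peaks in neither list had exactly 2. The 81 peaks lay inside genes in 92.6% of cases, against 59.9% of all merged peaks, and nothing is read from this share, since the rule used position relative to the gene.

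Genes that work with these phosphatases were counted from lists of known relatives, partners and substrates. For comparison, 15386 of all 21896 protein-coding genes had a merged peak. Of 10 other receptor-type phosphatase genes 8 had merged peaks, 54 in all, with 0 in the MDM list and 0 in the YSM list. Ptprc, which encodes the leukocyte antigen CD45, had 16 and Ptpra 15, at 14.17 and 14.42 per 100 kb, close to Ptpre. Ptprz1 and Ptprq had 0. Of 17 non-receptor tyrosine phosphatase genes 16 had peaks, 97 in all, with 0 in either list, led by Ptpn1 with 24. With 0.145% of all merged peaks MDM-listed and 1.48% YSM-listed, lists of this size hold few listed peaks, and nothing is read from these zeros.

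Of 33 ligand, adhesion partner and scaffold genes 17 had no assigned peak, beside 29.7% of all protein-coding genes. A count of 0 shows neither that the DNA was inaccessible nor that no peak touched the gene: at Lrfn4, with 0 assigned, 266 of the 300 start window bases lay under a peak assigned to another gene. The other 16 had 142 merged peaks, with 0 MDM-listed and 1 YSM-listed (0.704%, beside 0.145% and 1.48% of all merged peaks). The listed peak was 1 of 18 at Ppfibp2, which encodes a liprin-beta, of the liprin family that binds LAR-type phosphatases. The synaptic partners Slitrk1, Slitrk2, Slitrk3, Slitrk4, Slitrk5, Slitrk6 and Il1rapl1, which bind R2A phosphatases across the synapse, had 0 assigned peaks. Among the other listed R2A partners, Il1rap had 6, with 244 bases of its start window covered, and Lrrc4b had 1. Ntrk3, Lrfn5 and Gpc4 had 0, as did Lrfn4. Of the contactins listed as Ptprg ligands, Cntn3, Cntn4 and Cntn6 had 0 and Cntn5 had 3. Trio, a guanine nucleotide exchange factor that binds LAR, had 38 peaks. The catenin genes Ctnnd1, Ctnnb1, Jup and Ctnna1 had 14, 8, 5 and 3. The cadherin genes Cdh1, Cdh5 and Cdh2 had 8, 7 and 0. All 9 substrate genes had peaks, 86 in all, with 0 listed, from which nothing is read at the same overall shares. Among them were 18 at Fyn, a Src family kinase, and 16 at Kdr, a receptor kinase that Ptprj acts on.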

How the data were processed

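Omni-ATAC libraries of brain parenchymal macrophages, 2 MDM and 2 YSM by the sample titles, were processed by the authors with Trimmomatic 0.39, Bowtie2 2.2.5, Picard and HOMER on mm10, per the submitters' processing notes, which give no settings. The deposited files hold interval starts and ends, which the authors merged over 4 library-level peak lists with HOMER mergePeaks, per the file headers. How the libraries were sequenced in depth, and whether reads were shifted for the Tn5 offset, is unknown here. The number at the end of each deposited interval name was read as its count of subpeaks. This was checked on the coordinates, since all 15127 intervals with a count of 1 are 201 bp wide. The names of the differential lists tie them to DESeq2, the authors' test, and no source used here gives their thresholds.

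Intervals were written 1-based and matched to the lists by start and end, which found all 108 MDM and 1104 YSM entries. Genes and start windows came from RefSeq tables of GRCm38.p6, which give no exons, by symbol: all 10 members matched in the gene table and 9 in the start window table. A centre inside several genes counted for each of them in the counts over all genes. On simulated peaks and genes, the assignment gave the same gene and distance for every peak as a plain rewrite of the same rule. That check did not cover the preference for member genes or centres counted for several genes. Python 3.11.15, pandas 2.3.3, numpy 2.4.6 and scipy 1.17.1 were used. No test was made, since the files hold no value per library.

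Named genes are the 10 members, each gene of the related lists that holds a listed peak, and the 3 genes nearest to Ptprm by the relative difference in merged peaks plus the difference in YSM-listed share. Other genes of those lists are named as examples. The members and lists were chosen with earlier results of these data known, and the examples, the motifs and the split of Ptprm at its widest gap after values were seen. The alternatives changed the gene assignment, the distance limit (50 kb), the competing genes, the subpeak minimum (2 or 4), the merging of intervals within 1000 bp, the overlap that counts as listed and, added after seeing the data, left out Ptprm.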

Additional observations from a re-analysis of the deposited data

How the results depend on the processing

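Over 8 settings, 198 values of 25 counts, medians and shares were recomputed. Of these, 104 were of counts that are 0 in the main analysis, which settings that mostly remove peaks could hardly move, so they say nothing of stability. Of the other 94, 77 were classed as close to the main value. With at least 2 subpeaks, that class took in falls from 81 to 57 merged peaks and from 19 to 13 at Ptprj. For single genes with a count above 0, 53 of 62 were classed as close. Of the 9 that moved, 8 came from a subpeak minimum. The other was Ptprf, whose 3 peaks became 0 with centres inside the gene only. Many values classed as close could not have moved, so no stability is read from these counts. No peak lay beyond 50 kb of its gene, and the overlap that counts as listed leaves merged counts alone. Leaving out Ptprm cannot change the counts of the other genes. With at least 4 subpeaks, the 81 merged peaks became 38, the 10 YSM-listed became 2, the median per 100 kb became 1.04 from 3.11, and the share with at most 3 subpeaks is 0 by construction. With at least 2 subpeaks the median was 1.55 and that share 33.3%, since fewer peaks were counted. With centres inside the gene only, the median was 1.91. Without Ptprm the YSM-listed count was 0, in place of 10. No paired analysis was possible because the files hold no value per library, and for the same reason no library could be left out. The depth of the libraries, which limits what a missing peak shows, is unknown here.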
